A study of Homo sapiens with 9 samples.

Results

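The hairpins described here are the precursors of the miR-26 family (hsa-mir-26a-1, hsa-mir-26a-2 and hsa-mir-26b) and of miR-101 (hsa-mir-101-1 and hsa-mir-101-2), 2 miRNA families that target EZH2. They were taken by name from the authors' table of small RNA counts, as abundant hairpins that stand alone in the genome, and make up 5 of its 1485 rows. The table counts small RNA reads per hairpin in 9 libraries from 2 human cell lines in which ERH had been targeted with siRNAs. HEK293E is a derivative of HEK293, a line from human embryonic kidney. K562 is an established leukaemia line. ERH is a small nuclear protein known as a partner of the Microprocessor, the nuclear enzyme complex that cuts miRNA hairpins out of their primary transcripts. HEK293E cells were transfected on days 0 and 3 with siGFP (2 libraries), siControl (2), siERH-3 (2) or siERH-5 (1) and were harvested on day 5. K562 cells were transfected by electroporation with siGFP (1 library) or siERH-5 (1) and were harvested on day 4. siGFP and siControl served as controls, siERH-3 and siERH-5 are siRNAs against ERH, and no untransfected cells were analysed here.

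EZH2 is the catalytic subunit of Polycomb repressive complex PRC2, which places a repressive methyl mark on histone H3. Both families are known repressors of EZH2 through its 3′ UTR, and loss of miR-101 or miR-26 together with high EZH2 has been described in several cancers. The miR-26 hairpins lie in introns of the CTDSP phosphatase genes, on the same strand as these protein-coding hosts. Primary transcripts were not measured here.

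The sequences of the 5 hairpins, from RefSeq (GRCh38.p14, 5 of 5 matched by symbol), show which arms the copies have in common. Capitals mark the mature 5p and 3p arms.
hsa-mir-26a-1: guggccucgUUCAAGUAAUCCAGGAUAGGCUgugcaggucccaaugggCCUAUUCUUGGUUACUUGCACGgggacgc
hsa-mir-26a-2: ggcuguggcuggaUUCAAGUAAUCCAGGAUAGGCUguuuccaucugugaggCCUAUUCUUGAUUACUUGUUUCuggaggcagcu
hsa-mir-26b: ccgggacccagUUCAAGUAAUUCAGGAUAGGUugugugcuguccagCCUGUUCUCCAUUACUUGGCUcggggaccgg
hsa-mir-101-1: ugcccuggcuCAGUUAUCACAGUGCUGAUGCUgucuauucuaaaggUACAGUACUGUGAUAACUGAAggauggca
hsa-mir-101-2: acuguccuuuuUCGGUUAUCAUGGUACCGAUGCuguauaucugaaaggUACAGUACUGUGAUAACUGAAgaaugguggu
The 5p arm is identical in the 26a copies, and the 3p arm is identical in the miR-101 copies. The opposite arms differ between copies, but the table does not separate arms.

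The arms that carry the family seed are set out next, with the seed (bases 2 to 8) in capitals, because the seed is what a miRNA family shares.
hsa-miR-26a-5p: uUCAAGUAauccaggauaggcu
hsa-miR-26b-5p: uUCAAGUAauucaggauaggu
hsa-miR-101-3p: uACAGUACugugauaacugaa
Counted from 1 at the 5′ end, miR-26b-5p differs from miR-26a-5p by the substitutions C11U and C21U (2 differences over 21 shared positions), neither of them in the seed. In the RefSeq list, miR-4465 and miR-1297 carry the miR-26 seed as well, and miR-144-3p shares bases 2 to 7 with miR-101-3p.
hsa-miR-4465: cUCAAGUAgucugaccagggga
hsa-miR-144-3p: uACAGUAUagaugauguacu
The hairpin of miR-4465 had 0 or 1 counts in each HEK293E library, under the floor of 3 counts used here, and 5 and 20 counts in the K562 siGFP and siERH-5 libraries. hsa-mir-144, an erythroid hairpin, had 49 to 87 counts in HEK293E, 20669 in K562 siGFP and 35249 in K562 siERH-5. miR-1297 had no row. In HEK293E the counts of hairpins with either seed therefore came almost wholly from the 5 members, whereas K562 held about as many counts of hsa-mir-144 as of hsa-mir-101-1.

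The longest annotated 3′ UTR of EZH2 (GENCODE 29, 262 bases, chromosome 7, minus strand, GRCh38) held 1 match to the miR-26 seed and 2 to the miR-101 seed. The search used the sense strand of the UTR and the letters TACTTGA for miR-26 and GTACTGT for miR-101, which pair with bases 2 to 8. The 3 stretches are printed as DNA, with the match in capitals.
miR-26 match at UTR base 250, chr7:148807389-148807410: ctttgaataaagaaTACTTGAa
miR-101 match at UTR base 59, chr7:148807580-148807601: ttcaggaacctcgaGTACTGTg
miR-101 match at UTR base 114, chr7:148807525-148807546: tctgaatttgcaaaGTACTGTa
The 3 matches do not overlap. In the first 262 bases of the longest 3′ UTRs of 16249 genes, TACTTGA was found in 1.77% and GTACTGT in 1.33%. A pair or more of GTACTGT matches was found in 5 genes and both motifs in 7 genes. A match describes the letters only, and EZH2 itself was not measured by small RNA sequencing.

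In the GENCODE 29 annotation (GRCh38), hsa-mir-26a-1 lies on chromosome 3 from 37969404 to 37969480 on the plus strand, in an intron of CTDSPL. hsa-mir-26a-2 lies on chromosome 12 from 57824609 to 57824692 on the minus strand, in an intron of CTDSP2. hsa-mir-26b lies on chromosome 2 from 218402646 to 218402722 on the plus strand, in an intron of CTDSP1. hsa-mir-101-1 lies on chromosome 1 from 65058434 to 65058508 on the minus strand and overlaps no annotated gene. hsa-mir-101-2 lies on chromosome 9 from 4850297 to 4850375 on the plus strand, in an intron of RCL1, and the antisense gene AL158147.1 covers it with an exon on the other strand. The nearest hairpin of the table on the same strand was between 60666 bp (hsa-mir-26b) and 1731450 bp (hsa-mir-101-1) away, so none of the 5 sat in a miRNA cluster under the 10 kb limit used here.

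The miR-101 hairpins were the more AU-rich pair, with a GC content of 45.3% (hsa-mir-101-1) and 40.5% (hsa-mir-101-2), against 55.8% in hsa-mir-26a-1 and hsa-mir-26b, 47.6% in hsa-mir-26a-2, and a median of 50.8% over 1480 matched hairpins. hsa-mir-101-2 had the weakest predicted fold of the 5, at -30.0 kcal/mol. The other members folded at -36.2 (hsa-mir-101-1) to -41.3 kcal/mol (hsa-mir-26a-2). Per base, 19.3% of all hairpins were predicted to be less stable than hsa-mir-101-2, against 54.4% to 67.1% for the other members.

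The libraries held 2609929 to 3320017 hairpin counts, and each had 1061 to 1297 hairpins with at least 1 count. The labels do not say that replicates came from separate cultures, so p-values measure only the spread between these libraries, which may be technical. The line labels were checked on markers. The summed level of 5 blood and erythroid hairpins was 1126 to 1637 per 1000000 counts in HEK293E and 130027 and 123262 in K562. The 5 epithelial hairpins summed to 428 to 679 on the same scale in HEK293E and to 228 and 321 in K562, with no defining marker at 0 in its own line. On this scale the median of 741 hairpins was higher in HEK293E siGFP than in K562 siGFP by a log2 value of 1.26. The epithelial sums alone therefore do not tell the lines apart, and not all of the 5 epithelial hairpins were separate between them. ERH mRNA cannot be seen in small RNA libraries, so the knockdown was not checked here.

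The copies of each miRNA carried almost the same number. The count of hsa-mir-26a-1 was 0.996 to 0.999 times that of hsa-mir-26a-2 across the 9 libraries, and that of hsa-mir-101-1 was 0.999 to 1.01 times that of hsa-mir-101-2. The copies are thus 3 measurements and not 5: miR-26a, miR-26b and miR-101. How reads that fit several copies were counted is not given in the sources used here. Which locus produced a read cannot be told apart, and hsa-mir-26a-1 and hsa-mir-101-1 stand for their copies below.

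The miR-101 counts were the highest of the 3 in every library. hsa-mir-101-1 had 29543 counts in siGFP, 26067 in siControl and 23288 in siERH-3 of HEK293E replicate 1. In replicate 2 it had 26701 in siGFP, 32080 in siControl, 29473 in siERH-3 and 32975 in siERH-5. The raw counts of the 2 arms overlapped.

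hsa-mir-26a-1 had 11733 counts in siGFP, 13488 in siControl and 18461 in siERH-3 of HEK293E replicate 1. In replicate 2 it had 15732 in siGFP, 21915 in siControl, 22211 in siERH-3 and 20831 in siERH-5. The controls of replicate 1 were the lowest libraries, and the siERH-3 library of replicate 1 lay above them.

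hsa-mir-26b had 7375 counts in siGFP, 7734 in siControl and 12086 in siERH-3 of replicate 1. In replicate 2 it had 8746 in siGFP, 13282 in siControl, 13837 in siERH-3 and 13773 in siERH-5. It followed hsa-mir-26a-1 from library to library at a lower count. With 1 copy kept per hairpin name, the miR-26 seed family took 0.735% to 1.47% of a library's counts over the 9 libraries, and miR-101 took 0.958% to 1.30%.

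Counts per 1000000 on TMM-scaled library sizes (CPM; TMM sets libraries level by the bulk of their hairpins) changed the order. hsa-mir-101-1 stood at 8436 CPM in siGFP, 9151 in siControl and 6899 in siERH-3 of replicate 1, and at 11253 in siGFP, 12188 in siControl, 8986 in siERH-3 and 9362 in siERH-5 of replicate 2. Within each replicate every siERH library was below both controls. Across replicates the arms overlapped, since siERH-3 and siERH-5 of replicate 2 lay above siGFP of replicate 1. By comparison, 345 of the 773 hairpins tested (44.6%) had siERH and control ranges that did not overlap.

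**Figure D1:**
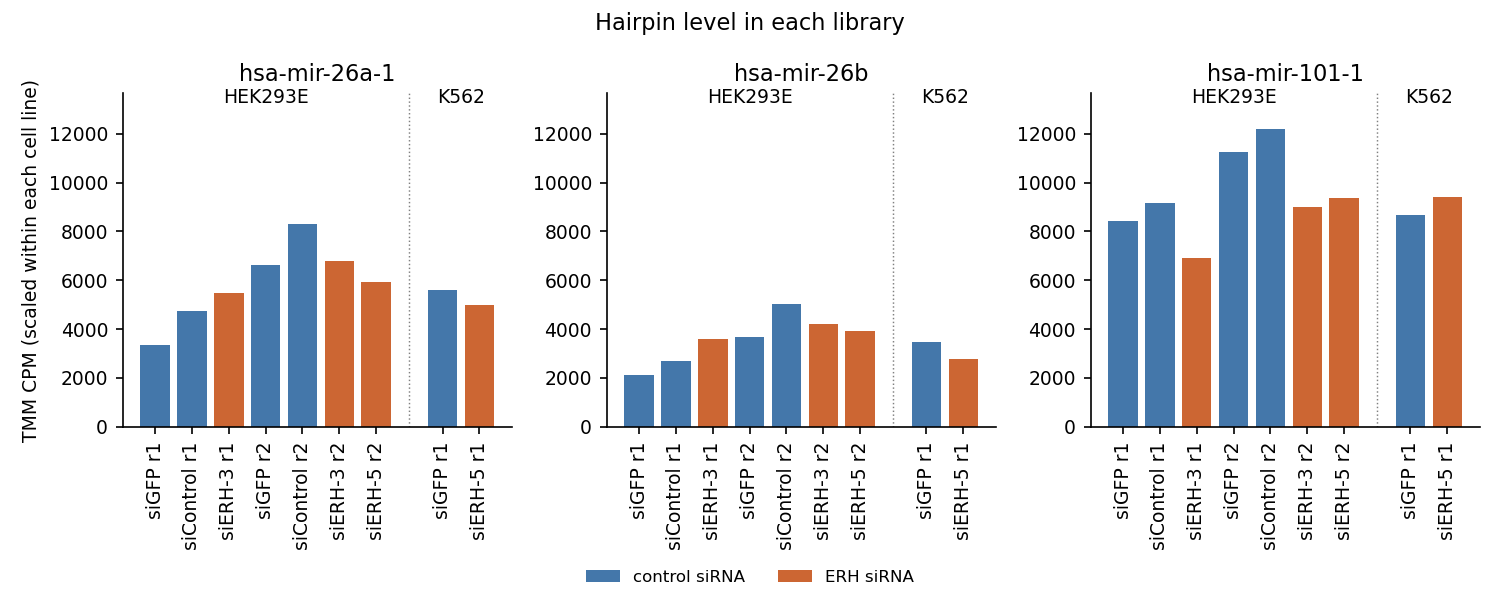
Level of hsa-mir-26a-1, hsa-mir-26b and hsa-mir-101-1 in each library, as TMM-scaled CPM, with HEK293E and K562 scaled separately, r1 and r2 for replicates 1 and 2, and 1 bar per library (control siRNA blue, ERH siRNA orange). The orange hsa-mir-101-1 bars of HEK293E lie below the blue bars of their own replicate, at 6899 against 8436 and 9151 in replicate 1.

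hsa-mir-26a-1 stood at 3350 CPM in siGFP, 4735 in siControl and 5469 in siERH-3 of replicate 1, and at 6630 in siGFP, 8326 in siControl, 6772 in siERH-3 and 5914 in siERH-5 of replicate 2. The siERH library was above both controls in replicate 1. In replicate 2 siERH-3 lay between the controls and siERH-5 below both. hsa-mir-26b stood at 2106 CPM in siGFP, 2715 in siControl and 3581 in siERH-3 of replicate 1, and at 3686 in siGFP, 5046 in siControl, 4219 in siERH-3 and 3910 in siERH-5 of replicate 2. For hsa-mir-26b both siERH libraries of replicate 2 lay between the controls.

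The replicate was the larger source of spread for miR-26. The mean of the controls of hsa-mir-26a-1 was 4043 CPM in replicate 1 and 7478 in replicate 2, a log2 difference of 0.89, and hsa-mir-26b differed by 0.86. hsa-mir-101-1 differed by 0.41. Of the 773 hairpins tested, 10.6% had a larger difference between replicates than hsa-mir-26a-1, 12.4% a larger one than hsa-mir-26b and 44.5% a larger one than hsa-mir-101-1.

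The first comparison asked how the EZH2-targeting hairpins stood when ERH was targeted, with 3 siERH libraries against 4 controls in HEK293E. None of the 5 members passed edgeR's quasi-likelihood test, whereas 40.0% of the 773 hairpins tested did (125 lower and 184 higher at an adjusted p under 0.05). hsa-mir-101-1 averaged 8416 ± 1327 CPM (SD, n = 3) with siERH and 10257 ± 1757 CPM (SD, n = 4) in controls. Its log2 fold change was -0.29 ± 0.18 (standard error), with a 95% interval from -0.68 to 0.11 and an edgeR adjusted p of 0.236. hsa-mir-101-2, with nearly the same counts, gave -0.28 and an edgeR adjusted p of 0.241.

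hsa-mir-26a-1 averaged 6052 ± 662 CPM (SD, n = 3) with siERH and 5760 ± 2176 CPM (SD, n = 4) in controls. Its log2 fold change was 0.071 ± 0.27 (interval -0.51 to 0.66, edgeR adjusted p = 0.846), and hsa-mir-26a-2 gave 0.072. hsa-mir-26b averaged 3903 ± 319 CPM with siERH (SD, n = 3) and 3388 ± 1283 CPM in controls (SD, n = 4). Its log2 fold change was 0.20 ± 0.26 (interval -0.36 to 0.77, edgeR adjusted p = 0.559). The intervals of both miR-26 hairpins reach past a log2 value of 0.5, so a change of that size was not excluded by these 7 libraries.

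The replicate numbers paired the libraries, and with the replicate as a block the miR-101 copies passed the test. hsa-mir-101-1 was lower with siERH by -0.35 ± 0.11 (interval -0.59 to -0.11, edgeR adjusted p = 0.0179), and hsa-mir-101-2 by -0.35 (edgeR adjusted p = 0.0186). In that fit 48.6% of hairpins passed the test, and 20.6% were called lower. The miR-26 hairpins did not pass it: hsa-mir-26a-1 gave 0.039 ± 0.17 (edgeR adjusted p = 0.851) and hsa-mir-26b 0.17 ± 0.17 (edgeR adjusted p = 0.416).

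The blocked miR-101 call rested on few libraries. It was lost without siERH-3 replicate 1 (-0.29, edgeR adjusted p = 0.115), without siERH-3 replicate 2 (-0.33, 0.0936), without siControl replicate 1 (-0.34, 0.0519) and without siControl replicate 2 (-0.33, 0.0551). The direction was the same in each of the 7 fits that left out 1 library. Among replicate 2 libraries alone, hsa-mir-101-1 stood at -0.31 (edgeR adjusted p = 0.0354), where 12.9% of hairpins were called lower.

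The scaling moved the calls of the family. With plain library totals in place of TMM, the median log2 fold change of all tested hairpins shifted from -0.010 to 0.19. hsa-mir-101-1 then stood at -0.086 without the block (edgeR adjusted p = 0.705) and at -0.14 with it (edgeR adjusted p = 0.222), so the blocked call was lost. hsa-mir-26b stood at 0.39 ± 0.14 with the block on library totals and passed the test (edgeR adjusted p = 0.0369), in a fit where 33.8% of hairpins were called higher and the median of all was 0.22. hsa-mir-26a-1 stood at 0.25 there (edgeR adjusted p = 0.144). A change of scaling moves all hairpins of a library alike, so it leaves the distances between the members nearly as they were.

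**Figure D2:**
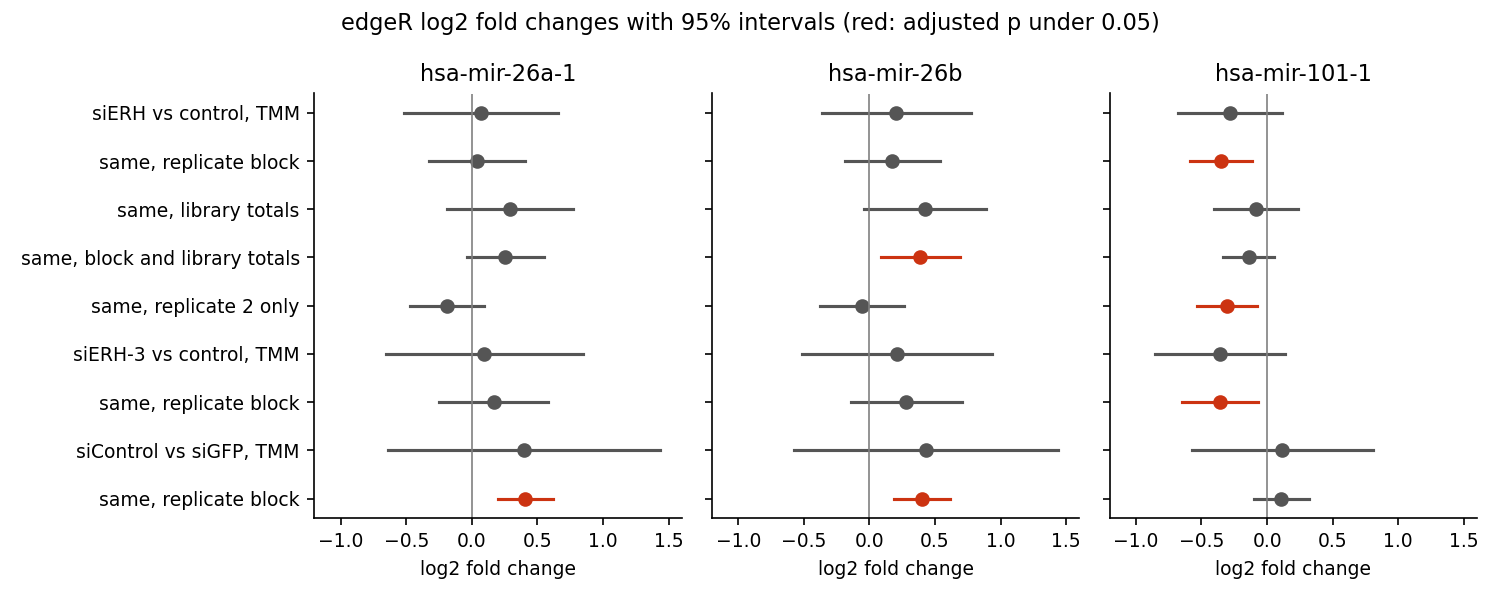
edgeR log2 fold changes of hsa-mir-26a-1, hsa-mir-26b and hsa-mir-101-1 (x axis) in the comparisons and settings named on the y axis, where a point is the estimate, a bar its 95% interval, and red marks an adjusted p under 0.05. hsa-mir-101-1 is red at -0.35 with the replicate block on TMM and grey at -0.14 with the block on library totals, whereas hsa-mir-26b is red at 0.39 in the latter.

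Removing the trend of the log counts on hairpin GC content set the miR-101 copies apart. hsa-mir-101-1 gave -0.58 (edgeR adjusted p = 0.0182) and hsa-mir-101-2 gave -0.76 (edgeR adjusted p = 0.00475), in a fit where 20.1% of hairpins were called lower. The copies differ in hairpin GC content but share nearly all counts, so the gap between these values came from the correction and not from the reads. The 26a copies parted in the same way, at 0.11 and -0.12, and neither passed the test.

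Set against the controls of the same replicate, miR-101 was the member with the most even difference. hsa-mir-101-1 was lower by -0.35 in siERH-3 replicate 1, -0.38 in siERH-3 replicate 2 and -0.32 in siERH-5 replicate 2 on the TMM scale (log2). It was below both controls of its replicate in 3 of 3 siERH libraries, as were 24.1% of the 773 hairpins. The siERH-3 and siERH-5 libraries of replicate 2 were set against the same controls, so the 3 values are not independent. On library totals the 3 values were -0.24, -0.12 and -0.025, again below both controls in 3 of 3 libraries, against 15.0% of hairpins.

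miR-26 gave opposite signs in the replicates. hsa-mir-26a-1 stood at 0.44 in siERH-3 replicate 1, -0.14 in siERH-3 replicate 2 and -0.34 in siERH-5 replicate 2 (log2, TMM). hsa-mir-26b stood at 0.57, -0.049 and -0.16 in the same order. On library totals hsa-mir-26b was above the mean of its controls in all 3 libraries (0.69, 0.21 and 0.14), and hsa-mir-26a-1 in 2 of 3 (0.56, 0.12 and -0.037).

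**Figure D3:**
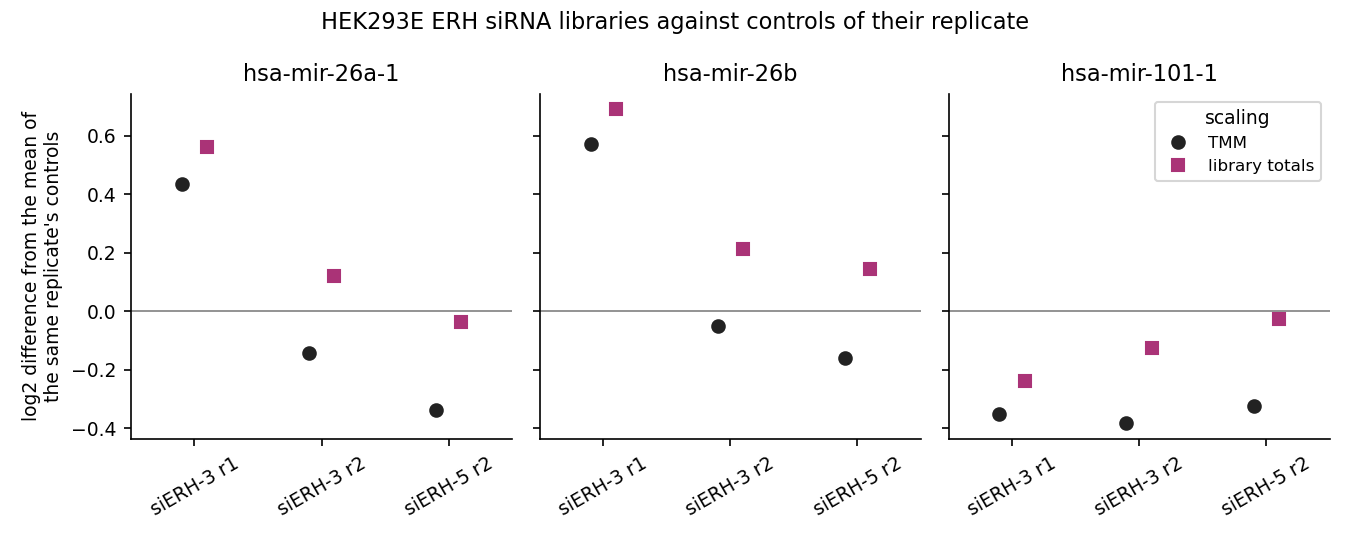
log2 difference of each HEK293E ERH siRNA library (x axis) from the mean of the 2 controls of the same replicate (y axis), for hsa-mir-26a-1, hsa-mir-26b and hsa-mir-101-1, on TMM (circles) and on library totals (squares). The hsa-mir-101-1 points all lie below 0, from -0.38 to -0.025, and the miR-26 points lie highest in siERH-3 replicate 1.

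The siERH-3 siRNA alone, with libraries in both replicates, gave a like picture in 2 libraries against 4. No member passed edgeR's test without a block, where 30.6% of 759 hairpins did. hsa-mir-101-1 stood at -0.36 ± 0.22 (edgeR adjusted p = 0.247). With the block it stood at -0.36 ± 0.13 and passed (edgeR adjusted p = 0.0459), in a fit where 18.7% were called lower. hsa-mir-26a-1 stood at 0.096 and hsa-mir-26b at 0.21 without the block, with edgeR adjusted p-values of 0.865 and 0.655. Both siERH-3 libraries and all 4 controls are also part of the first comparison, so these values are not independent of it.

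siERH-5 has 1 library in HEK293E and no test. Against the mean of the replicate 2 controls its log2 ratio was -0.32 for hsa-mir-101-1, -0.34 for hsa-mir-26a-1 and -0.16 for hsa-mir-26b. All members were inside 2-fold, which 23.2% of 760 hairpins exceeded. On library totals hsa-mir-26b turned to 0.14.

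Between the control siRNAs the miR-26 hairpins were called only with the replicate block, on 4 libraries. Without a block, edgeR called 0 of 730 hairpins between siControl and siGFP (0%), with 24 at an unadjusted p under 0.05, and DESeq2 called 2 lower and 2 higher. With the replicate block, hsa-mir-26a-1 was higher in siControl by 0.41 ± 0.11 (edgeR adjusted p = 0.00262), hsa-mir-26a-2 by 0.41 (0.00248) and hsa-mir-26b by 0.40 ± 0.11 (0.00338). In that fit 9.86% of hairpins were called higher. hsa-mir-101-1 did not pass it, at 0.11 ± 0.11 (edgeR adjusted p = 0.527). With the block and the GC trend removed, the values were the same in size but did not pass (0.41 for hsa-mir-26a-1, edgeR adjusted p = 0.0981, and 0.40 for hsa-mir-26b, edgeR adjusted p = 0.0760). Without a block, leaving out siControl replicate 2 turned the sign, to -0.086 for hsa-mir-26a-1 and -0.10 for hsa-mir-26b. On library totals with the block, hsa-mir-26a-1 stood at 0.28 (edgeR adjusted p = 0.0446) and hsa-mir-26b at 0.28 (edgeR adjusted p = 0.0522). The gap between the control siRNAs was thus larger for miR-26 than its difference from controls in the blocked siERH fit on TMM, although the 2 were not tested against each other. The sign of the siERH value differed with the control siRNA used. Against siGFP alone hsa-mir-26a-1 stood at 0.26 and hsa-mir-26b at 0.42. Against siControl alone they stood at -0.14 and -0.023, with no edgeR adjusted p under 0.05 in any of these. The sign was also negative in replicate 2 alone, with both control siRNAs kept, and the cause was not tested.

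Ratios of raw counts within a library do not depend on scaling. The log2 ratio of hsa-mir-26b to hsa-mir-26a-1 was -0.63 ± 0.046 (SD, n = 3) with siERH and -0.76 ± 0.079 (SD, n = 4) in controls. The difference of 0.13 did not pass the exact permutation test with its 35 splits (p = 0.0857, two-sided; 0.229 adjusted over 4 ratios), whose smallest p is 0.0286. The within-replicate differences were 0.12 (replicate 1) and 0.14 (replicate 2).

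The log2 ratio of hsa-mir-101-1 to hsa-mir-26a-1 was 0.47 ± 0.17 (SD, n = 3) with siERH and 0.90 ± 0.33 (SD, n = 4) in controls. The difference of -0.43 did not pass either (exact permutation test, p = 0.114; 0.229 adjusted). It was -0.81 in replicate 1 and -0.12 in replicate 2. The siERH-3 library had the lowest ratio of its replicate in both replicates, and siERH-5 lay between siControl and siGFP of replicate 2. The ratios between copies differed by -0.0008 for miR-26a (exact permutation p = 0.429) and by -0.0031 for miR-101 (exact permutation p = 0.171). Copies carry nearly the same counts, so their ratios stay near a log2 value of 0 in any library. They do not measure the technical spread of a ratio between different miRNAs.

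**Figure D4:**
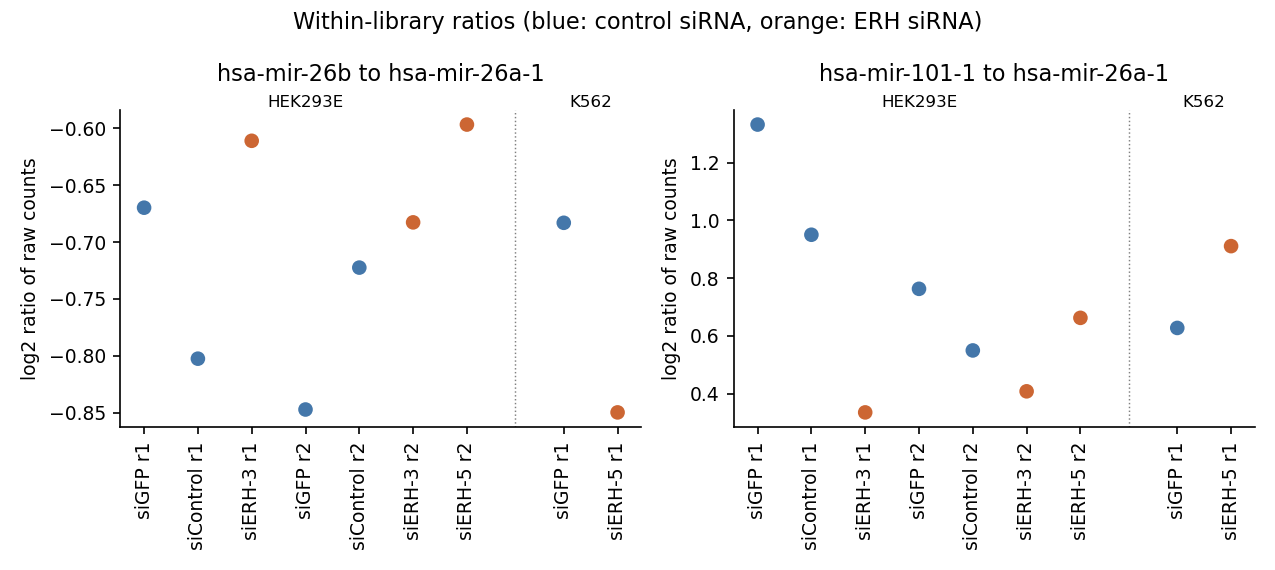
log2 ratio of raw counts within each library (y axis) for hsa-mir-26b to hsa-mir-26a-1 and for hsa-mir-101-1 to hsa-mir-26a-1, with 1 point per library (x axis), control siRNA blue and ERH siRNA orange. In HEK293E the orange points of the first ratio average -0.63 against -0.76 for the blue ones, and in K562 the orange point is the lower one.

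K562 has 1 library per siRNA and no test. In the siGFP library hsa-mir-101-1 had 20519 counts, hsa-mir-26a-1 13280 and hsa-mir-26b 8271. In the siERH-5 library the same hairpins had 34404, 18295 and 10153. On K562's own TMM scale these were 8658 and 9395 CPM for hsa-mir-101-1, 5604 and 4996 CPM for hsa-mir-26a-1, and 3490 and 2773 CPM for hsa-mir-26b. The log2 ratios of siERH-5 to siGFP were 0.12, -0.17 and -0.33. The median of 646 hairpins was 0.11, and 16.9% differed by at least 2-fold, none of them a member.

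On library totals the K562 ratios were 0.40 for hsa-mir-101-1, 0.12 for hsa-mir-26a-1 and -0.049 for hsa-mir-26b, with a median of 0.37 over all hairpins. miR-101 was close to the median of the line and miR-26b below it on both scales. On TMM 50.5% of hairpins had a lower ratio than hsa-mir-101-1 and 23.4% a lower one than hsa-mir-26b. On library totals these were 52.2% and 23.8%. The ratio of hsa-mir-26b to hsa-mir-26a-1 moved by -0.17 in K562, against 0.12 and 0.14 in the HEK293E replicates. The ratio of hsa-mir-101-1 to hsa-mir-26a-1 moved by 0.28, against -0.81 and -0.12. The differences between the lines were not tested.

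The level of the members between the lines depended on the scaling. Per 1000000 counts of library totals, hsa-mir-101-1 stood at 9094 and 10231 in the HEK293E siGFP libraries and at 7850 in K562 siGFP. hsa-mir-26a-1 stood at 3612 and 6028 in HEK293E and at 5081 in K562. hsa-mir-26b stood at 2270 and 3351 in HEK293E and at 3164 in K562. The K562 value thus lay below both HEK293E values for miR-101 and between them for miR-26a and miR-26b.

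As log2 ratios of HEK293E to K562 siGFP on library totals, hsa-mir-101-1 gave 0.30, hsa-mir-26a-1 -0.076 and hsa-mir-26b -0.17, where the median of 741 hairpins was 1.26 and 67.9% differed by at least 2-fold. With TMM over all 9 libraries they gave -0.81, -1.16 and -1.26, against a median of 0.20 and 55.3% at 2-fold. The members lay on the K562 side of the median hairpin. miR-101 was the highest of the 3 and miR-26b the lowest in both lines. hsa-mir-26a-1 and hsa-mir-26b, neighbours in that order, were set apart in each library by a log2 ratio of raw counts from -0.85 to -0.60, a range narrower than the spread of either between libraries.

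Of the other hairpins with a like pattern, the nearest to miR-26 was hsa-mir-16-2. Likeness was the root mean square difference of log2(CPM + 1) over the 9 libraries, each hairpin centred on its mean, among 248 hairpins of at least 100 CPM. hsa-mir-26a-1 lay 0.10 from hsa-mir-16-2, 0.16 from hsa-mir-32 and 0.19 from hsa-mir-107, against a median of 0.82. hsa-mir-26b had the same 3 nearest hairpins, at 0.089, 0.21 and 0.21. hsa-mir-101-1 was nearest to hsa-mir-18b (0.16), hsa-mir-1277 (0.17) and hsa-mir-140 (0.17), against a median of 0.75. hsa-mir-26a-1 lay 0.089 from hsa-mir-26b and 0.29 from hsa-mir-101-1.

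Other hairpins reported to repress EZH2 give the setting for these values. Of 22 listed, 21 were tested in siERH against control, and 5 of these were called lower and 0 higher, where 16.2% of all 773 were lower and 23.8% higher. The 21 rows hold 15 names once copy numbers are dropped, and 3 of the 5 calls are copies of hsa-mir-124 with nearly the same values. The median log2 fold change was -0.10 against -0.010 for all 773. The 5 were the 3 copies of hsa-mir-124, a neuronal miRNA (-3.01 for hsa-mir-124-3, edgeR adjusted p = 5.5e-06), hsa-mir-98 of the let-7 family (-0.52, edgeR adjusted p = 0.0388) and hsa-mir-217 (-2.20, edgeR adjusted p = 0.00103). They were far less abundant than the members. Averaged over control and siERH libraries together, hsa-mir-124-3 stood at 119 CPM, hsa-mir-98 at 89.3 and hsa-mir-217 at 31.6. The most abundant of the list, hsa-let-7a-3 at a mean of 2903 CPM, stood at 0.30 and did not pass (edgeR adjusted p = 0.244). With the replicate block 5 were lower and 1 higher, against 20.6% and 28.1% of all hairpins. The higher one was hsa-let-7e (0.77, edgeR adjusted p = 0.0322), at a mean of 604 CPM, which stood at 0.68 without the block (edgeR adjusted p = 0.105). On library totals the list had 4 lower and 4 higher, against 8.67% lower and 27.4% higher of all hairpins.

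Of 85 other hairpins that stand alone and average at least 1000 CPM, 18 were called lower and 7 higher, against 16.2% and 23.8% of all hairpins, with a median of -0.17. The 85 rows hold 73 names once copy numbers are dropped. Copies with nearly the same values count as separate rows among both the lower and the higher calls. With the replicate block 28 were lower and 12 higher, against 20.6% and 28.1%, with a median of -0.18. The blocked value of hsa-mir-101-1 was thus below the median of these 85 rows, and those of hsa-mir-26a-1 and hsa-mir-26b were above it. The rows were chosen by distance and level alone, not by how the hairpins are processed. On library totals the median of the 85 was 0.015.

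**Figure D5:**
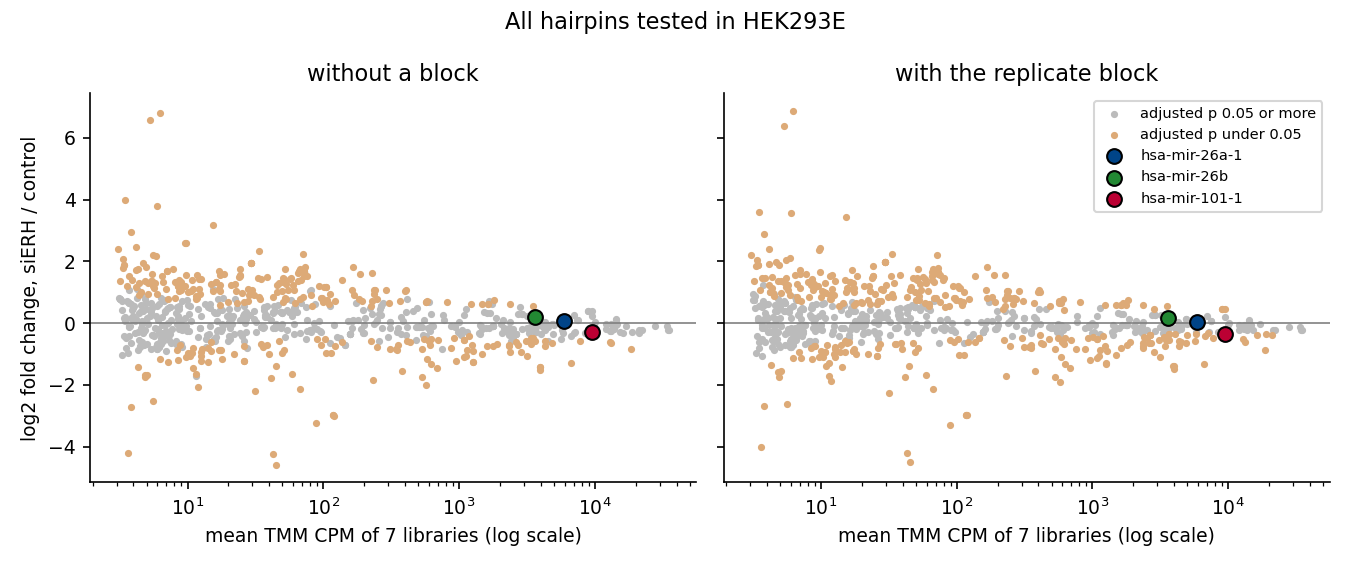
log2 fold change of siERH against control (y axis) by mean TMM CPM over the 7 HEK293E libraries (x axis, log scale) for the 773 hairpins tested, without a block on the left and with the replicate block on the right, where tan points have an adjusted p under 0.05. The 3 named members lie at high CPM and close to 0, from -0.29 to 0.20 on the left.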

How the data were processed

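Per the labels' protocols, RNA of the size of mature miRNAs was purified on gels from total RNA mixed with spike-in RNAs and ligated to adapters with random nucleotides. The submitters' processing notes name hg38, cutadapt, Bowtie2 and bedtools without settings. The authors deposited raw counts per hairpin for 1485 hairpins, and 2336 blank cells were read as 0. They also deposited RPM values, which equal the count plus 1 over the library total plus 1485, times 1000000 (largest relative difference 1.1e-09), and served only for an alternative. Arms were not separated, and spike-ins were not used here, so every change is relative to the other hairpins.

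Testing was limited to hairpins averaging 10 counts or more, with edgeR 4.0.16 in R 4.3.3 (TMM scaling, quasi-likelihood test, Benjamini-Hochberg adjustment over all hairpins tested, threshold 0.05). The standard error is the log2 fold change over the root of F. On simulated counts of 773 hairpins the test called 145 of 200 hairpins changed 2-fold (72.5%) and 6 unchanged ones. The simulated counts held no replicate effect and were fitted without a block. They do not cover the blocked fits or changes as small as those of the members. Groups and replicate numbers come from the titles. The numbers were treated as pairing the libraries: they match the experimental groups of the labels, and deviations of same-numbered libraries correlated (r of 0.69, 0.48 and 0.52 across 773 hairpins). Comparisons with 1 library used log2 of CPM plus 1. Within-library ratios were compared by exact permutation. Alternatives were library totals, DESeq2 1.42.0, limma 3.58.1 on log2(RPM + 1), other filters, a replicate block, removal of a GC trend (loess, span 0.75), 1 copy per name, a pseudocount of 10 and leaving out each library. The split by control siRNA, the block with library totals, the block with a library left out, and leaving out a library for siControl against siGFP were chosen after seeing the data. Floors of 3 counts were 0.904 to 1.15 RPM and cover counting error only, as adapters' random nucleotides are not stated to have been used to collapse reads.

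Sequences come from RefSeq (GRCh38.p14) and GENCODE 29 transcripts. Folds used RNAfold 2.7.2. Tables and plots were made in Python 3.11.15 with pandas 2.3.3, matplotlib 3.10.9, scipy 1.17.1 and numpy 2.4.6. The members and lists were chosen with earlier results of these data known. Named hairpins are the members, their seed relatives, the 3 hairpins nearest in pattern, and up to 4 of a list by mean CPM; the called hairpins of the EZH2 list were named after their values were seen.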

Additional observations from a re-analysis of the deposited data

Results flagged for a closer look

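In K562 some members moved to the other side of their controls than in the HEK293E siERH libraries, and none of these differences between lines was tested, since K562 has 1 library per siRNA. hsa-mir-101-1 had a K562 log2 ratio of 0.12 on TMM and 0.40 on library totals. hsa-mir-101-2, with nearly the same counts, had 0.11 and 0.40. For both copies all 3 HEK293E siERH libraries were below their controls on both scales. siERH-5, the only ERH siRNA used in K562, gave -0.32 on TMM but only -0.025 on library totals for hsa-mir-101-1. Its share of the siERH-5 library had a counting interval of 1.005% to 1.027%. That interval overlaps the one in siGFP replicate 2 (1.011% to 1.035%) but lies below the one in siControl replicate 2 (1.034% to 1.057%). The larger values on library totals, -0.24 and -0.12, were those of siERH-3, which was not used in K562. The median K562 hairpin stood at 0.11 and 0.37, so miR-101 was near the middle of that line. hsa-mir-26b had a K562 ratio of -0.049 on library totals, with all 3 HEK293E libraries above the mean of their controls on that scale.

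The ratio of hsa-mir-26b to hsa-mir-26a-1 moved by -0.17 in K562, against 0.12 and 0.14 in the HEK293E replicates. The 95% counting margin of the K562 value was 0.053 to either side, which covers counting error only. The ratio of hsa-mir-101-1 to hsa-mir-101-2 moved by 0.0035 in K562, against -0.0043 and -0.0024 in HEK293E, with a counting margin of 0.035. No control library stood apart from the other 3 by Dixon's 95% critical value in any of 9 sets of member levels and ratios. The controls differed in level between replicates, which widens the range, so this check could miss a library that stood apart. Copies with nearly the same counts are among the 9 sets.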

How the results depend on the processing

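The limits of these values are few libraries, a scaling that shifts all hairpins, and copies that share reads; depth was not limiting, since each member had at least 7375 counts in each library. In siERH against control, hsa-mir-26a-1 changed sign without a filter (-0.029), in replicate 2 alone (-0.19) and against siControl alone (-0.14), and hsa-mir-26b in replicate 2 alone (-0.056) and against siControl alone (-0.023). hsa-mir-26a-2 changed sign in these 3 (-0.029, -0.19, -0.14) and with the GC trend removed (-0.12; -0.15 with the replicate block). hsa-mir-101-1 passed the threshold with the replicate block (-0.35), the GC trend removed (-0.58), both (-0.64) and replicate 2 alone (-0.31), and hsa-mir-26b with the block and library totals (0.39). The cause was not tested.

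Leaving out 1 library gave -0.12 to 0.29 for hsa-mir-26a-1, -0.12 to 0.30 for hsa-mir-26a-2, 0.029 to 0.45 for hsa-mir-26b and -0.37 to -0.13 for hsa-mir-101-1. With the replicate block the ranges were -0.17 to 0.18, -0.17 to 0.18, -0.039 to 0.35 and -0.39 to -0.29, and for hsa-mir-101-2 -0.39 to -0.28. The 125 lower hairpins became 67 on library totals, 45 at 100 CPM, 58 with limma, 193 with the block and GC trend removed, and 76 to 130 with 1 library left out (77 without siERH-3 replicate 1, 76 without siERH-3 replicate 2). The 184 higher became 38 at 100 CPM, where fewer hairpins were tested, 120 with the GC trend removed and 136 to 189 with 1 library left out. The 159 lower of the blocked fit became 94 to 178 (94 without siERH-3 replicate 1) and its 217 higher 190 to 225.

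For siERH-3 alone, 87 lower and 145 higher became 48 lower on library totals, 30 and 27 at 100 CPM, 43 lower with limma, 142 lower with the block, 91 higher with the GC trend removed, 169 lower with both, 237 higher with the block and library totals, and 19 to 102 lower and 42 to 152 higher with 1 library left out (fewest lower without siERH-3 replicate 1, fewest higher without siERH-3 replicate 2). hsa-mir-26a-1 stood at -0.0033 and hsa-mir-26a-2 at -0.0023 without a filter. hsa-mir-26a-2 stood at -0.070 with the GC trend removed and -0.0066 with the block too. hsa-mir-101-1 passed with the block (-0.36), GC trend removed (-0.63) and both (-0.63), and hsa-mir-26b with the block and library totals (0.46). Ranges with 1 library left out were -0.098 to 0.33 for hsa-mir-26a-1 (-0.097 to 0.33 for the other copy), 0.035 to 0.47 for hsa-mir-26b and -0.55 to -0.16 for hsa-mir-101-1.

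Between siControl and siGFP, lower and higher calls rose from 0 and 0 to 2 and 2 with DESeq2 and without a filter, 61 and 72 with the block, 20 and 28 with the block and GC trend removed, and 112 and 36 with the block and library totals; with 1 library left out they were 0 and 0 to 1. hsa-mir-26a-1 passed with the block (0.41) and with the block and library totals (0.28), hsa-mir-26b with the block (0.40). hsa-mir-101-1 stood at -0.013 on library totals, -0.017 with limma and -0.017 with the block and library totals, and hsa-mir-101-2 at -0.011, -0.014 and -0.014. Ranges were -0.086 to 0.95 for hsa-mir-26a-1, -0.083 to 0.95 for hsa-mir-26a-2, -0.10 to 0.87 for hsa-mir-26b, -0.11 to 0.32 for hsa-mir-101-1 and -0.11 to 0.33 for hsa-mir-101-2; a group left with 1 library is assumed to vary like the other.

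Without a test, library totals moved K562 to 0.12 for both miR-26a copies, -0.049 for hsa-mir-26b and 0.40 for hsa-mir-101-1, HEK293E siERH-5 to -0.037, 0.14 and -0.025 (hsa-mir-26b 0.085 against siGFP alone), and HEK293E over K562 to -0.076, -0.17 and 0.30, with hsa-mir-101-2 at 0.29. The within-library ratio differences with 1 library left out were 0.10 to 0.16 (miR-26b to miR-26a) and -0.55 to -0.29 (miR-101 to miR-26a), and the replicate block gave 0.14 and -0.40. Over its 18 splits the smallest p is 0.0556, so the block could not give a call for a ratio. In the edgeR fits on TMM it changed no call of a member beyond those named here and in the results.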
